A study of Mus musculus with 12 samples.

Results

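The last step of erythroblast maturation with a nucleus, from polychromatic (Poly) to orthochromatic (Ortho) erythroblasts, was described in mouse bone marrow. Its members were the 3 Poly and the 3 Ortho libraries, 6 of the 12 libraries of the series, chosen by their labels. The genes tested were those with an FPKM (a fragment count scaled to the length of the transcript and to the size of the library) of at least 1 in at least 3 of these 6 libraries, 12209 of the 29838 genes in the table. Both groups were wild type (WT) erythroblasts from the bone marrow of male C57BL/6 mice aged 8 weeks, without treatment. According to the study's methods, CD45+ cells were first removed with magnetic beads. Ter119+ cells without CD45, CD11b or GR1 staining were then divided by CD44 staining and cell size. The other 6 libraries were from proerythroblasts and basophilic erythroblasts (Baso), and only the Baso libraries were used here, to compare this step with the step before it. Ortho replicates 2 and 3 carry the general label Erythroblast as their cell type and were placed by their titles. The labels do not say whether the libraries of a stage came from separate mice, so the p-values measure only the spread between these samples, which may be technical.

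Poly cells have begun to fill with hemoglobin and can still divide. Ortho cells have left the cell cycle, hold a small condensed nucleus and then expel it to become reticulocytes, which clear their mitochondria and ribosomes. Around this step, the cell depends on autophagy and on the ubiquitin system to remove organelles and proteins, and on the late products of erythroid transcription for hemoglobin, membrane skeleton and surface transporters.

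The erythroid identity of both stages was checked first. Hbb-bs, an adult β-globin gene, had a mean of 55169 FPKM in Poly and 86860 FPKM in Ortho. Slc4a1, which encodes the anion exchanger band 3, had 1902 and 1672 FPKM. Genes of the antigens that were sorted out were also present: Ptprc, the gene for CD45, had 52.9 and 57.5 FPKM, and Ly6g, one of the genes for GR1, had 48.3 and 45.2 FPKM. Itgam, the gene for CD11b, had 53.0, 25.1 and 39.2 FPKM in Poly replicates 1 to 3 and 53.4, 22.8 and 35.5 FPKM in the Ortho replicates of the same numbers. Of the marker lists, 18 neutrophil genes summed to between 18336 and 21710 FPKM in Poly and between 16469 and 20464 FPKM in Ortho, and none of them was called, with Cebpe lower by the adjusted p alone (55.8 and 49.0 FPKM). The sums were 1017 to 1230 and 1067 to 1392 FPKM for 18 B and plasma cell genes, and 1707 to 1998 and 1603 to 1784 FPKM for 11 eosinophil, basophil and mast cell genes. T and NK cell genes summed to 68.3 to 76.7 and 65.2 to 75.9 FPKM, with Cd3g at 0 in all 6 libraries. Megakaryocyte and platelet genes summed to 78.1 to 89.0 and 70.3 to 85.3 FPKM, and 1 of them, Gp9, was called lower (11.2 and 3.90 FPKM). Endothelium and stroma genes summed to 17.9 to 32.7 and 20 to 24.9 FPKM. Only the sums of 18 monocyte and macrophage genes did not overlap between the stages, at 2165 to 2523 FPKM in Poly and 2573 to 3023 FPKM in Ortho. Most of that sum was Lyz2, whereas the macrophage genes C1qa, C1qb and C1qc had means under 1 FPKM in both stages. In bulk RNA, fewer cells of a type and less RNA per cell cannot be told apart.

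Transcripts fell more often than they rose at this step. A gene was called when its adjusted p from limma on log2(FPKM + 1) was under 0.05 and its log2 fold change was at least 1 in either direction. A log2 fold change on this scale understates the change of genes with low FPKM. Of the 12209 genes, 140 (1.15%) were called higher and 625 (5.12%) lower in Ortho, 765 (6.27%) in all. Some genes passed the filter through 1 stage alone, which favours a call toward that stage. These counts and shares include such genes. By the adjusted p alone, 703 genes (5.76%) were higher and 2966 (24.3%) lower, 3669 (30.1%) in all. The 3 Ortho libraries lay wholly above or below the 3 Poly libraries in 5368 genes (44.0%), and in 764 of the 765 called genes. With 3 libraries in each stage, the smallest p that exact permutation allows is 0.1, and the calls by limma draw on a spread estimated over all genes. Among genes with a Poly mean of at least 1 FPKM, the shares of lower and of higher calls both grew with the level in Poly. Tested genes with a lower Poly mean are outside these groups. They needed Ortho libraries to pass the filter, which favours higher calls. On log2(FPKM + 1), a gene at 1 FPKM in Poly can fall by at most 1, which limits lower calls at low levels. Of 6211 genes with a Poly mean of 1 to 10 FPKM, 1.61% were called lower and 0.628% higher, of 5180 genes at 10 to 100 FPKM 8.22% and 1.27%, and of 604 genes at 100 FPKM or more 16.4% and 3.15%. Of the calls, 16 exceeded a log2 fold change of 2 upward and 32 exceeded it downward.

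Hemoglobin transcripts took a larger part of the Ortho libraries, and an FPKM depends on what else a library holds. The 4 adult globin genes Hba-a1, Hba-a2, Hbb-bs and Hbb-bt each passed the adjusted p alone in the higher direction, at 0.61, 0.66, 0.65 and 0.58 on the log2 scale, and none of the 5 globin genes tested was called. These are near-identical pairs, so the value of each copy is uncertain. The globin genes made up 34.8, 37.6 and 37.4% of the summed FPKM in the Poly libraries and 47.2, 52.6 and 49.0% in the Ortho libraries. The means were 36.6% ± 1.56 and 49.6% ± 2.74 (SD, n = 3), a difference of 13.0 percentage points that exceeded the spread between replicates (exact permutation test, two-sided, p = 0.1, the smallest possible). This test did not pair libraries by replicate number. Over the 12209 genes, the median log2 fold change was -0.08. It became -0.23 with all libraries rescaled to the same sum, 0.04 with the rescaling done without hemoglobin genes and 0.07 when libraries were centred on their medians. The same rescalings gave 94 higher and 912 lower calls, 188 higher and 464 lower calls, and 198 higher and 441 lower calls, so lower calls outnumbered higher ones under each. Of the 95 genes named below as called lower, 19 were not called with the rescaling without hemoglobin genes and 20 with centring on the median, and of the 48 named as called higher, 10 were not called with the same sum. List medians below are to be read against -0.08, and a median under a rescaling against that of all genes under the same rescaling. Calls in the lists are to be read against 1.15% higher and 5.12% lower among all genes. Counts by the adjusted p alone are to be read against 5.76% higher and 24.3% lower.

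**Figure D1:**
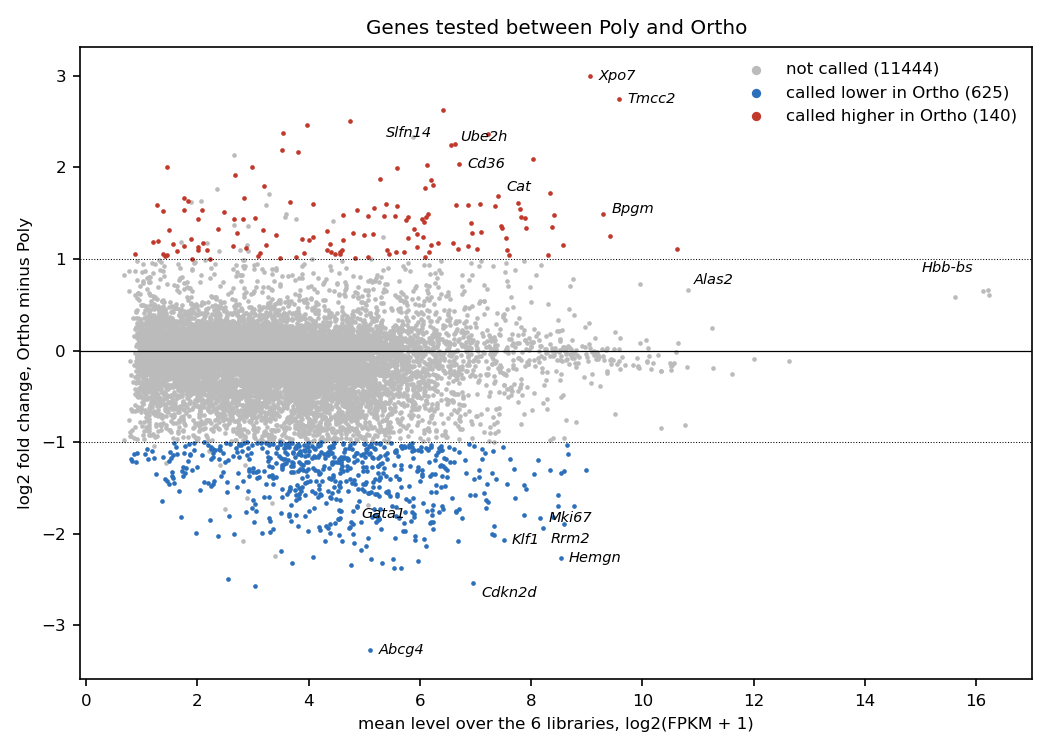
Log2 fold change from Poly to Ortho against the mean level over the 6 libraries, in log2(FPKM + 1), with 1 point per gene tested. The 140 genes called higher are red, the 625 called lower are blue, the dotted lines mark a log2 fold change of 1 in either direction, and Xpo7, at 3.0, and Abcg4, at -3.27, lie farthest from 0 among the genes labelled.

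Promoters of 6 genes are shown as examples of groups described below. Cdk1, Ccnb2 and Ube2c are mitotic genes that fell together, Trim10 and Slfn14 are erythroid genes that rose, and Hemgn is an erythroid gene that fell. The sequences are from RefSeq on GRCm38.p6, the assembly behind mm10, and run 5′ to 3′ on the strand of the gene from 250 bases before to 50 bases after its start. In the mitotic genes, capitals mark TTTGAA, the core of the cell cycle homology region (CHR), and CCAAT, on either strand. In the other genes, capitals mark AGATAA or TGATAA, the letters of a GATA motif, on either strand. Cdk1 is at chr10:69352863-69353162, minus strand, Ccnb2 at chr9:70421505-70421804, minus strand, and Ube2c at chr2:164769679-164769978, plus strand. Trim10 is at chr17:36869324-36869623, plus strand, Slfn14 at chr11:83286677-83286976, minus strand, and Hemgn at chr4:46404134-46404433, minus strand.
Cdk1: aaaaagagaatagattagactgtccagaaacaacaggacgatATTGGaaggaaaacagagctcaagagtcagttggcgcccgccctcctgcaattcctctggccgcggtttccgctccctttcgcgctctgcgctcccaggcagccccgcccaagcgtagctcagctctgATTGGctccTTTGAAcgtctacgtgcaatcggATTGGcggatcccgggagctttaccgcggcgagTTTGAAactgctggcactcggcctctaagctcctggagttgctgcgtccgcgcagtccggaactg
Ccnb2: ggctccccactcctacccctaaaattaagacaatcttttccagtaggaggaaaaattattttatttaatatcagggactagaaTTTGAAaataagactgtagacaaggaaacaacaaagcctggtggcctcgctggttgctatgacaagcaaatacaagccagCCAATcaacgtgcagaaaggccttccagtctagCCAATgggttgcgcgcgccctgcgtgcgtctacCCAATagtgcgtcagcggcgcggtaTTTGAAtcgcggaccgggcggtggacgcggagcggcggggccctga
Ube2c: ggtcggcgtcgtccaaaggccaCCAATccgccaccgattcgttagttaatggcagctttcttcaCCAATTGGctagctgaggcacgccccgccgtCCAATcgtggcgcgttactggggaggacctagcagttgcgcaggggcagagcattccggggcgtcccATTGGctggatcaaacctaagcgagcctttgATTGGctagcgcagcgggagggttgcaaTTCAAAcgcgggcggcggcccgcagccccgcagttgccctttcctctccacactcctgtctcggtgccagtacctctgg
Trim10: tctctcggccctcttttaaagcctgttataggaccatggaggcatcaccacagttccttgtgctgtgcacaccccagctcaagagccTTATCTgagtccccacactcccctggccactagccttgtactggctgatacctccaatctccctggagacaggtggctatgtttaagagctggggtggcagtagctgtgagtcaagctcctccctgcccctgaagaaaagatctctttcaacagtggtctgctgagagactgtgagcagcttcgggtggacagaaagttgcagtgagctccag
Slfn14: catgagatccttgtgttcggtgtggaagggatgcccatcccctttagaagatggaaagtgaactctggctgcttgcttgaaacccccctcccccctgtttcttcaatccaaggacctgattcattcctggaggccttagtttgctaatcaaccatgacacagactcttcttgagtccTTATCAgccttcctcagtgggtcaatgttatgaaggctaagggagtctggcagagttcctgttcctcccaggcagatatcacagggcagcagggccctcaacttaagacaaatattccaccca
Hemgn: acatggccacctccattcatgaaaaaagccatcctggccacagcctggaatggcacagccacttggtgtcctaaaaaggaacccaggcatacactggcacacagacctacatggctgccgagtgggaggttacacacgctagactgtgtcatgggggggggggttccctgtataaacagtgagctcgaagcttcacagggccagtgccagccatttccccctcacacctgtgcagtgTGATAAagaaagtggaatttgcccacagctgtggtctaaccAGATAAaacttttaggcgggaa

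The CHR letters were found in the promoters of 28 of the 36 mitosis genes with a RefSeq promoter (77.8%), against 12.3% of 8681 tested genes with one and 18.1% of all 27025 promoters of the same length. CCAAT was found in 80.6% of the mitosis promoters and in 39.5% of the tested genes. Among all genes called lower, 25.2% of 453 promoters held the CHR letters, and among genes called higher 6.19% of 97. The E2F letters searched, TTCCCGC and TTGGCGC on both strands, were in 17 of 35 DNA replication promoters (48.6%), in 19.4% of mitosis promoters and in 13.0% of the tested genes. They were in 21.6% of the promoters of all genes called lower, and also in 21.6% without the mitosis and replication lists. Their share was 9.28% among genes called higher and 6.93% among all 27025 promoters. The GATA letters were in 15 of the 97 promoters of genes called higher (15.5%), 11.0% of those called lower and 10.3% of the tested genes. Among all 27025 promoters their share was larger, 19.0%. CCACCC, part of a Krüppel-like factor motif, was in 27.8% of the promoters of genes called higher, 35.5% of those called lower and 36% of the tested genes. It was in 30.9% of all promoters. Among the 6 promoters shown, Cdk1 and Ccnb2 each hold 2 CHR and 3 CCAAT matches, Ube2c holds 1 and 6, whereas Trim10 and Slfn14 hold 1 GATA match each and Hemgn holds 2. A match is a description of the letters and no binding was measured.

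Every gene of the mitosis list changed in one direction. The lists, this one included, were chosen with earlier results of these data known. Shares set against those of all genes, here and below, are thus descriptions. All 42 members of the mitosis list passed the filter and were called lower in Ortho, against 5.12% of all genes, with a median log2 fold change of -1.62 and a range of -2.30 to -1.02. Between 39 and 42 of them were called lower under the alternatives, and Ttk, a spindle checkpoint kinase, was not called without Ortho replicate 1, where its log2 fold change was -0.96. Cdk1, the kinase that drives entry into mitosis, had 154, 74.8 and 81.3 FPKM in Poly and 18.0, 16.7 and 23.0 FPKM in Ortho. Poly replicate 1 was high, and even the lowest Poly library was above every Ortho library (log2 fold change -2.30, SE 0.27, limma adjusted p = 0.00072). Ube2c, the ubiquitin-conjugating enzyme of the anaphase-promoting complex, had 531, 521 and 515 FPKM in Poly and 146, 154 and 143 FPKM in Ortho (log2 fold change -1.82, SE 0.05, limma adjusted p = 3.1e-06). Mki67, the gene of the proliferation antigen Ki-67, had 447, 409 and 477 FPKM and then 129, 109 and 136 FPKM, a log2 fold change of -1.83. Ccnb2, a B-type cyclin, had 218, 220 and 218 FPKM and then 62.7, 73.0 and 74.5 FPKM, a log2 fold change of -1.63. Each stage's libraries lay close together, apart from Cdk1 in Poly replicate 1. Top2a, which untangles sister chromatids, Birc5 (survivin), Ccna2, Aurka, Aurkb and Plk1 fell by between 1.47 and 2.0 on the log2 scale.

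DNA replication genes also held lower calls alone. Of 44 members, 15 (34.1%) were called lower and none higher, against 5.12% and 1.15% of all genes. By the adjusted p alone, 40 were lower, against 24.3% of all genes, and the median log2 fold change was -0.84. Rescaling to the same sum gave 22 lower calls in this list, and rescaling without hemoglobin genes or centring on the median gave 10. Rrm2, the regulated subunit of ribonucleotide reductase, had 466, 456 and 480 FPKM in Poly and 116, 119 and 128 FPKM in Ortho, the largest fall of the list (log2 fold change -1.94, SE 0.05, limma adjusted p = 3.1e-06). Pcna, the sliding clamp of the DNA polymerases, had 401, 362 and 394 FPKM in Poly and 174, 164 and 163 FPKM in Ortho, a log2 fold change of -1.20. Both genes were well separated between the stages. Rrm1 and Mcm2 were called lower, at -1.28 and -1.09, and Mcm6, at -0.71, was not called. Replication-dependent histone genes, whose messages accompany DNA synthesis, had 14 of 54 tested members called lower (25.9%), none called higher and a median of -0.62. Their calls were unsteady: 8 were called without Poly replicate 2 and 6 with no filter on low values. Hist1h2ao was called at -1.29, and 5 of the 6 fits that left out a library did not call it: -1.14 without Poly replicate 2, -1.02 without Poly replicate 3, -1.05 without Ortho replicate 1, -1.38 without Ortho replicate 2 and -1.43 without Ortho replicate 3. Its Poly libraries had 155, 338 and 402 FPKM and its Ortho libraries 80.3, 129 and 138 FPKM, which did not overlap. Near-identical histone genes share fragments, so the value of each is uncertain.

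Regulators of G1 and the E2F factors moved in both directions. Of 32 tested members, 3 were called higher and 9 (28.1%) lower, against 1.15% and 5.12% of all genes. Cdkn2d, which encodes the CDK4/6 inhibitor p19INK4d, had 232, 218 and 182 FPKM in Poly and 35.4, 26.2 and 46.5 FPKM in Ortho (log2 fold change -2.54, SE 0.20, limma adjusted p = 9.8e-05). Cdkn2c, the gene for the related inhibitor p18INK4c, had a log2 fold change of -1.74. Ccne1 and Ccne2, the E-type cyclins that bring cells into S phase, had -1.81 and -1.45. E2f8 and E2f4, which encode repressive E2F factors, had -1.73 and -1.38, and Rb1, the retinoblastoma gene, had -1.37. Gadd45a, a stress-inducible growth arrest gene, went the other way, with 122, 97.9 and 84.3 FPKM in Poly and 276, 243 and 246 FPKM in Ortho (log2 fold change 1.34, SE 0.13, limma adjusted p = 0.00028). Tfdp2, which encodes an E2F partner, was called higher at 1.04. Cdkn1b, the gene for p27KIP1, had 45.9, 43.9 and 40.6 FPKM in Poly and 76.8, 139 and 86.3 FPKM in Ortho. Its call, at a log2 fold change of 1.15, was lost without Ortho replicate 2, the highest library, where it was 0.89. With all libraries rescaled to the same sum, 1 gene of this list was called higher. Cdkn1a, the gene for p21, had 9.63 ± 4.02 FPKM in Poly and 11.1 ± 3.98 in Ortho, and Ccnd2, a D-type cyclin, 7.17 ± 0.469 and 8.53 ± 0.470 (SD, n = 3), neither called.

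**Figure D2:**
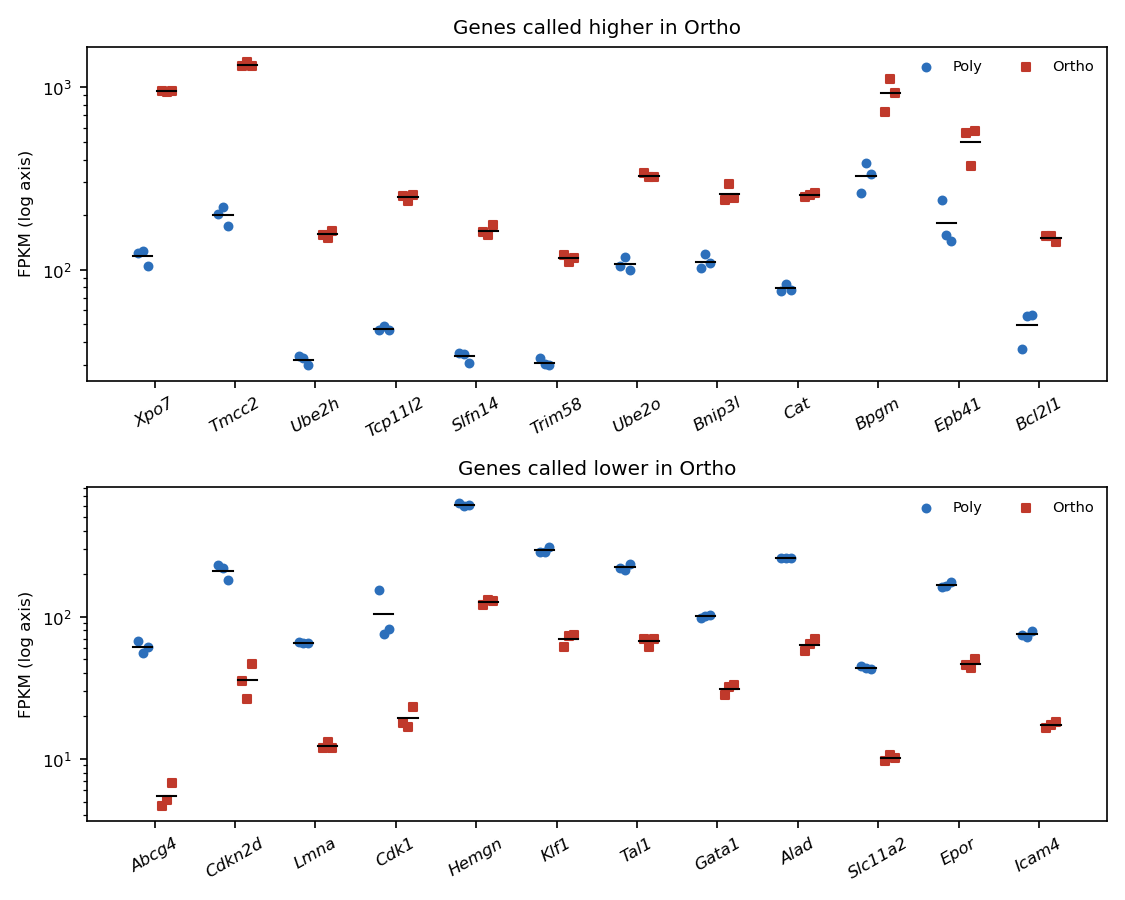
FPKM of each library on a log axis for 12 genes called higher and 12 genes called lower in Ortho, with Poly libraries as blue circles, Ortho libraries as red squares and the mean of each stage as a black line. The libraries of the 2 stages do not overlap in any of these genes, and Cdk1 in Poly, Epb41 and Bpgm show a wide spread between replicates.

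The largest increases were in genes of several kinds. Xpo7, on chromosome 14 of mm10 from 70654246 to 70766628 on the minus strand, encodes exportin 7, a nuclear transport receptor. It had 123, 127 and 104 FPKM in Poly and 954, 935 and 956 FPKM in Ortho. This was the largest increase of all called genes (log2 fold change 3.0, SE 0.08, limma adjusted p = 3.1e-06), with a ratio of means of 8.03. Gm49244, a processed pseudogene within Xpo7 on the opposite strand, was called at 2.37. Npm2, which overlaps the end of Xpo7 on the same strand, was called at 1.06 with a mean of 1.50 FPKM in Ortho, and 1 of the 6 fits that left out a library did not call it, at 0.98. Npm2 passed the filter only through its Ortho libraries, so the filter itself favoured a higher value in Ortho. How the counting shared fragments between these genes is not given in the sources used here, so their values are uncertain. Tmcc2, a transmembrane coiled-coil gene on chromosome 1 from 132356315 to 132391281, had 203, 219 and 173 FPKM in Poly and 1302, 1368 and 1308 FPKM in Ortho (log2 fold change 2.74, SE 0.09, limma adjusted p = 4.0e-06). Both genes rose in every Ortho library to a similar level. Slfn14, a Schlafen family endoribonuclease gene of the platelet and red cell lineages, had 35, 34.5 and 30.6 FPKM in Poly and 161, 154 and 175 FPKM in Ortho, a log2 fold change of 2.26. Tcp11l2 had 46.6, 49.0 and 46.6 FPKM and then 254, 236 and 256 FPKM, a log2 fold change of 2.37. Lpin2, which encodes a phosphatidate phosphatase, and Fam213a, a peroxiredoxin-like gene, were called at 2.02 and 2.09. Tbcel, a tubulin chaperone-like gene, had 31.6, 18.3 and 16.4 FPKM in Poly and 74.6, 179 and 187 FPKM in Ortho. Poly replicate 1 was high and Ortho replicate 1 low, and its log2 fold change of 2.62 carried a larger error than the others (SE 0.39, limma adjusted p = 0.0022). Zfp874a was called at 2.19, with its neighbour in sequence Zfp874b at 1.43.

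Cd36, a scavenger receptor gene, had 32.6, 35.8 and 53.5 FPKM in Poly and 157, 177 and 164 FPKM in Ortho (log2 fold change 2.04, SE 0.17, limma adjusted p = 0.00015). Macrophages also express Cd36. The monocyte and macrophage markers Csf1r, Cd68 and Ccr2 passed the adjusted p alone, with means of 20 and 26.4, 19.0 and 29.1, and 32.1 and 47.2 FPKM in Poly and Ortho, and the other 7 tested markers of that list did not. Their part in the Cd36 result was not tested. Prokr1, a G protein-coupled receptor gene, was called at 2.0, from 2.14 ± 0.145 FPKM to 11.6 ± 1.42 FPKM (SD, n = 3). Among transcripts with no protein, the long noncoding RNA 5830448L01Rik had 7.10 ± 1.14 and 44.6 ± 3.18 FPKM and Gm26526 had 4.14 ± 0.500 and 22 ± 1.55 FPKM. The pseudogene Gm9522 had 4.17, 1.38 and 5.74 FPKM in Poly and 21.4, 13.5 and 42.0 FPKM in Ortho, a wide spread. Of the genes called, 106 of the 140 higher ones and 571 of the 625 lower ones were protein coding (75.7 and 91.4%), against 86.3% of all genes tested.

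Ubiquitin conjugation genes that act in red cell maturation held the most higher calls of the lists. Of 31 members, 9 were called higher and 1 lower, against 1.15% and 5.12% of all genes. The list median of 0.15 turned to -0.03 with all libraries rescaled to the same sum, which also lowered the median of all genes. Between 6 and 11 higher calls were made under the alternatives. Ube2h, a ubiquitin-conjugating enzyme of erythroid cells, had 33.5, 32.6 and 29.9 FPKM in Poly and 155, 150 and 162 FPKM in Ortho (log2 fold change 2.25, SE 0.06, limma adjusted p = 3.1e-06). Ube2o, a hybrid conjugating and ligase enzyme that marks proteins for removal in reticulocytes, had 104, 118 and 99.1 FPKM and then 339, 323 and 320 FPKM, a log2 fold change of 1.61. Trim58, an erythroid ubiquitin ligase that targets dynein, had 32.6, 30.2 and 29.8 FPKM and then 120, 110 and 115 FPKM, a log2 fold change of 1.87. These 3 genes rose in each Ortho library with little spread. Trim10, an erythroid tripartite motif gene, had 239, 239 and 231 FPKM in Poly and 538, 522 and 520 FPKM in Ortho, a log2 fold change of 1.15. Fbxo30, Ube2b, Dcaf12, Ube2r2 and Rnf11 were called between 1.07 and 2.0. Rnf123, a ligase gene, was the single lower call, at -1.09, and it was not called with the rescaling without hemoglobin genes (-0.95) or with centring on the median (-0.95). Ubb, a polyubiquitin gene, passed the adjusted p alone at 0.72, with 747 ± 23.4 FPKM in Poly and 1233 ± 58.2 in Ortho (SD, n = 3). Proteasome subunits as a list had a median of -0.25. By the adjusted p alone, 19 of the 37 tested were lower and 1 higher, against 24.3% and 5.76% of all genes. Of the 37, 1 was called lower (2.70%) and none higher, against 5.12% and 1.15% of all genes. That gene, Psmd5, was called at -1.03, but not without Poly replicate 2 (-0.94), Poly replicate 3 (-0.95) or Ortho replicate 2 (-0.98), nor when rescaled without hemoglobin genes (-0.90) or centred on the median (-0.88).

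Autophagy and mitophagy genes held 6 higher and 2 lower calls among 44 members, against 1.15% and 5.12% of all genes. Bnip3l, which encodes the NIX receptor that brings mitochondria to autophagosomes, had 102, 121 and 108 FPKM in Poly and 240, 295 and 246 FPKM in Ortho (log2 fold change 1.23, SE 0.10, limma adjusted p = 0.00012). Ulk1, the kinase that starts autophagosome formation, had 34.6, 25.1 and 26.1 FPKM in Poly and 92.9, 68.3 and 79.8 FPKM in Ortho, a log2 fold change of 1.46. Calcoco1, an autophagy receptor of the endoplasmic reticulum, had a log2 fold change of 1.54, Atg4a, an ATG8-processing protease, 1.45 and Atg14, a subunit of the lipid kinase complex, 1.31. Among the ATG4 proteases the members differed in direction, since Atg4b was called lower at -1.18. Pink1, the mitochondrial kinase that recruits Parkin, was called at 1.03, but its value was 0.94 without Poly replicate 1, 0.96 without Ortho replicate 2 and 0.93 without Ortho replicate 3, where it was not called. Atg4d was called at -1.01, and its value was -0.88 without Ortho replicate 2 and -0.95 without Ortho replicate 3, where it was not called. Map1lc3b and Gabarapl2, both ATG8 proteins, passed the adjusted p alone at 0.71 and 0.69. The list median of 0.16 turned to -0.01 with all libraries rescaled to the same sum, which also lowered the median of all genes. No tested lysosome and vacuolar ATPase gene was called. Of 38 tested, 5 were higher and 3 lower by the adjusted p alone, against 5.76% and 24.3% of all genes.

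Among erythroid transcription factors, all calls were lower. Of 34 members, 10 (29.4%) were called lower and none higher, against 5.12% and 1.15% of all genes. The median log2 fold change was -0.42. Klf1, the Krüppel-like factor that activates β-globin and many other red cell genes, had 284, 282 and 310 FPKM in Poly and 60.7, 73.5 and 73.6 FPKM in Ortho (log2 fold change -2.06, SE 0.09, limma adjusted p = 8.0e-06). Gata1, the master factor of the lineage, had 97.1, 101 and 102 FPKM in Poly and 27.9, 31.9 and 33.1 FPKM in Ortho, a log2 fold change of -1.67. Tal1, a partner of GATA1 on DNA, had 219, 214 and 235 FPKM in Poly and 70.0, 61.4 and 69.4 FPKM in Ortho, a log2 fold change of -1.72. In these 3 genes the Ortho libraries held about the same reduced level. Gfi1b, an erythroid repressor, was called at -1.87, Klf3 at -1.35 and Klf11 at -1.29. Zfpm1, which encodes the GATA1 cofactor FOG1, had 118, 115 and 230 FPKM in Poly and 61.9, 35.1 and 36.4 FPKM in Ortho, with Poly replicate 3 high (log2 fold change -1.75, SE 0.32, limma adjusted p = 0.0056). Zbtb7a, a globin-switching repressor also called LRF, was called at -1.1 but not without Poly replicate 3, where its value was -0.85. By the adjusted p alone, 18 members were lower and 3 higher, against 24.3% and 5.76% of all genes. Foxo3, a late erythroid forkhead factor, passed the adjusted p alone in the higher direction at 0.39, and Lmo2, the bridging protein of the GATA1 and TAL1 complex, had 154, 165 and 146 FPKM in Poly and 173, 200 and 242 FPKM in Ortho, a log2 fold change of 0.39. Hemgn, an erythroid nuclear protein gene, was outside the list and had 632, 595 and 608 FPKM in Poly and 121, 131 and 129 FPKM in Ortho, a log2 fold change of -2.26.

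Epor, the erythropoietin receptor gene, also fell. It had 162, 164 and 176 FPKM in Poly and 46.0, 43.4 and 50 FPKM in Ortho (log2 fold change -1.83, SE 0.07, limma adjusted p = 5.4e-06). Jak2, its kinase, passed the adjusted p alone at -0.72, and Gab1, an adaptor, was called at -1.28. No member of the 19 tested EPO and KIT signalling genes was called higher, against 1.15% of all genes. Pim1, a survival kinase and target of the pathway, lay just outside the fold threshold at 0.98, with means of 91.2 FPKM in Poly and 180 FPKM in Ortho. In this list, 1 gene was called higher without Poly replicate 1, and 1 without Ortho replicate 3. Rescaling without hemoglobin genes and centring on the median each gave 2 higher calls in this list. Bcl2l1, which encodes the survival factor BCL-XL, had 36.9, 55.3 and 56.6 FPKM in Poly and 152, 153 and 141 FPKM in Ortho (log2 fold change 1.59, SE 0.16, limma adjusted p = 0.00031). It was the only higher call of 24 BCL2 family and caspase genes. Xiap, an inhibitor of caspases, had 17.2, 19.4 and 19.2 FPKM and then 5.70, 4.83 and 11.5 FPKM, a log2 fold change of -1.31, and it was not called with no filter on low values (limma adjusted p = 0.057) or with a pseudocount of 5 (-0.97).

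Heme synthesis genes did not all move one way. Of 19 members, 5 (26.3%) were called lower and none higher, against 5.12% and 1.15% of all genes. The median log2 fold change was -0.46. Alas2, the erythroid enzyme of the first step, had 1315, 1479 and 1405 FPKM in Poly and 2044, 2376 and 2243 FPKM in Ortho. Its log2 fold change of 0.66 passed the adjusted p alone (SE 0.07, limma adjusted p = 0.00049). Alad, the enzyme of the second step, had 258, 257 and 259 FPKM in Poly and 57.3, 63.6 and 69.4 FPKM in Ortho (log2 fold change -2.01, SE 0.07, limma adjusted p = 5.3e-06). Cpox, which makes protoporphyrinogen in the mitochondrial intermembrane space, had 365, 345 and 373 FPKM in Poly and 96.2, 106 and 108 FPKM in Ortho, a log2 fold change of -1.79. The Alad and Cpox libraries were tightly grouped in each stage and far apart between stages. Fech, the enzyme that inserts the iron, passed the adjusted p alone in the higher direction, at 0.26. Ppox was lower at -0.63 and Uros at -0.72, both by the adjusted p alone. Of the transporters, Tmem14c, which carries porphyrin precursors into the mitochondrial matrix, was called at -1.46, Abcb6 at -1.47 and Slc25a38, the mitochondrial glycine carrier, at -1.22.

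**Figure D3:**
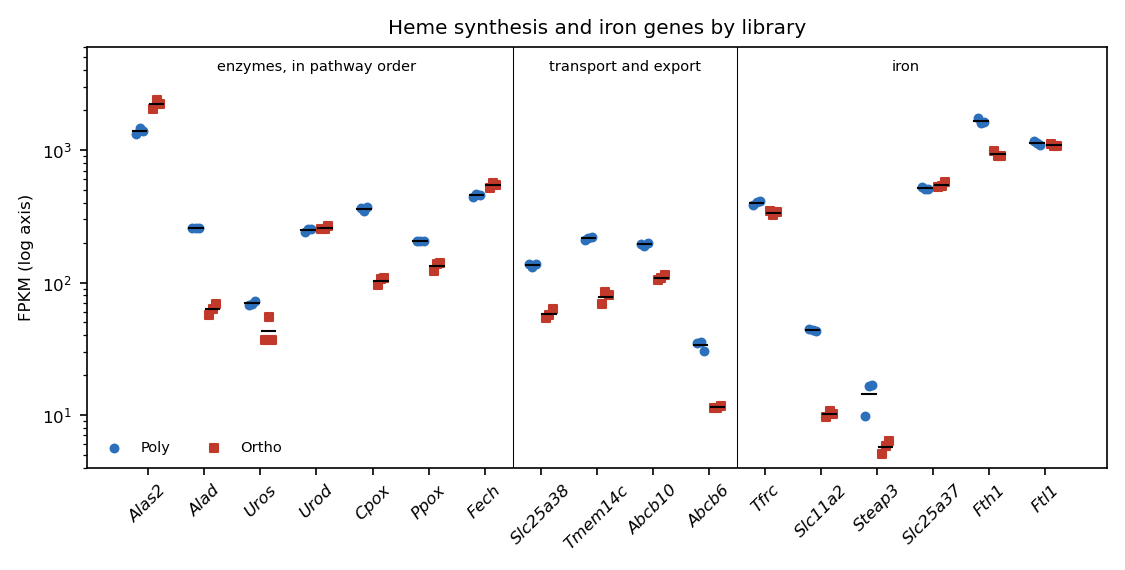
FPKM of each library on a log axis for heme synthesis enzymes in the order of the pathway, heme transport genes and iron genes, with Poly libraries as blue circles, Ortho libraries as red squares and stage means as black lines. Alad, Cpox, Slc25a38, Tmem14c, Abcb6, Slc11a2 and Steap3 lie lower in Ortho and are called, whereas Alas2 and Fech lie higher and pass the adjusted p alone.

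Of 21 iron genes, 5 (23.8%) were called lower and none higher, against 5.12% and 1.15% of all genes. The median was -0.41. Slc11a2, which encodes the endosomal iron transporter DMT1, had 44.6, 43.6 and 42.9 FPKM in Poly and 9.72, 10.6 and 10.2 FPKM in Ortho (log2 fold change -2.0, SE 0.06, limma adjusted p = 3.8e-06). Steap3, the endosomal ferrireductase, had 9.74, 16.4 and 16.9 FPKM and then 5.08, 5.84 and 6.40 FPKM, a log2 fold change of -1.15. Slc40a1, the gene of the iron exporter ferroportin, was called at -1.07. Erfe, the erythroid hormone that lowers hepcidin, was called at -1.12 from 1.58 ± 0.449 FPKM in Poly and 0.180 ± 0.120 in Ortho (SD, n = 3), and it was not called without Poly replicate 1, where its value was -0.98. Erfe passed the filter only through its Poly libraries, so the filter itself favoured a lower value in Ortho. Tfrc, the transferrin receptor gene, and Fth1, the ferritin heavy chain gene, passed the adjusted p alone at -0.26 and -0.84. Centring on the median gave 3 lower calls in this list, and a pseudocount of 5 gave 2.

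Most calls among surface protein genes were lower. Of 18 tested blood group and surface genes, 8 (44.4%) were called lower and 1 higher, against 5.12% and 1.15% of all genes. The median was -0.68. Icam4, which carries the Landsteiner-Wiener blood group and binds macrophage integrins, had 74.5, 71.7 and 78.5 FPKM in Poly and 16.5, 17.4 and 18.1 FPKM in Ortho (log2 fold change -2.05, SE 0.06, limma adjusted p = 3.8e-06). Aqp1, the water channel, had 638, 675 and 674 FPKM and then 180, 211 and 223 FPKM, a log2 fold change of -1.70. Rhd, the Rh antigen gene, had 537, 523 and 544 FPKM and then 208, 203 and 220 FPKM, a log2 fold change of -1.34. Gypc, Slc2a4, Slc29a1, Slc14a1 and Xk were called between -1.76 and -1.11. Aqp9, a glycerol and urea channel, was the higher call, at 1.26, and its Poly libraries had 17.8, 19.1 and 16.7 FPKM against 43.2, 44.0 and 45 FPKM in Ortho. Kel and Rhag, 2 other antigen genes, passed the adjusted p alone at -0.31 and -0.27. Cd44, the gene of the antigen used to divide the stages, had 51.3, 43.5 and 44.9 FPKM in Poly and 64.8, 48.3 and 51.5 FPKM in Ortho, which overlapped (log2 fold change 0.22, limma adjusted p = 0.22).

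Of 16 membrane skeleton genes, 2 were called higher and 2 lower (12.5% each), against 1.15% and 5.12% of all genes. Tpm1, a tropomyosin of the short actin filaments, had 24.5, 20.3 and 25 FPKM in Poly and 73.1, 68.5 and 71.7 FPKM in Ortho, a log2 fold change of 1.58. Epb41, which encodes protein 4.1R, had 242, 155 and 143 FPKM in Poly and 557, 367 and 572 FPKM in Ortho, with the widest spread of the 4 (log2 fold change 1.48, SE 0.24, limma adjusted p = 0.0033). Sptb, the β-spectrin gene, had 283, 264 and 287 FPKM and then 99.5, 95.7 and 107 FPKM, a log2 fold change of -1.45. Dmtn, the dematin gene, had 228, 253 and 196 FPKM and then 51.5, 74.2 and 92.5 FPKM, a log2 fold change of -1.65. With all libraries rescaled to the same sum, 4 genes were called lower.

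Nuclear transport and envelope lists held more lower than higher calls, as did all genes (5.12% lower and 1.15% higher). Of 28 exportin, importin and RAN cycle genes, Xpo7 was the single higher call, 4 were called lower, and the median was -0.49. Rangap1 (-1.30), Kpna2 (-1.09) and Rcc1 (-1.05), which are a RAN GTPase activator, an importin α gene and the RAN exchange factor on chromatin, were called lower. Xpo1, the main exportin, was called at -1.01 from 51.1 ± 0.952 FPKM in Poly and 24.9 ± 0.943 in Ortho (SD, n = 3), and it was just outside the threshold without Poly replicate 2 (-0.99) and without Ortho replicate 2 (-0.98). With the rescaling without hemoglobin genes, and with centring on the median, 1 gene of this list was called lower. Lmna, the gene of lamins A and C, had 65.9, 65.0 and 65.6 FPKM in Poly and 11.8, 13.2 and 12 FPKM in Ortho (log2 fold change -2.32, SE 0.06, limma adjusted p = 3.1e-06). Lbr, the lamin B receptor gene, had 357, 343 and 363 FPKM and then 133, 112 and 128 FPKM, a log2 fold change of -1.51. Tmpo and Sun1, also of the nuclear envelope, were called at -1.40 and -1.12, and no member of the 16 was called higher. Lmnb1, a B-type lamin gene, passed the adjusted p alone at -0.91. Of 20 tested genes for the actin and motor machinery of enucleation, only Diaph3, a formin gene, was called, at -1.31. Of 27 chromatin-modifying enzyme genes, Ezh1, a polycomb methyltransferase, was called higher at 1.05, but not without Ortho replicate 3, where it was 0.99. Its relative Ezh2 passed the adjusted p alone at -0.94.

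Large housekeeping groups held few calls. None of 80 cytosolic ribosomal protein genes was called by limma (6 were lower by the adjusted p alone, and 1 was called higher without Ortho replicate 2), with a median of -0.03 that became 0.11 with the rescaling without hemoglobin genes. None of 78 nuclear-encoded respiratory chain genes was called, with a median of -0.15. By the adjusted p alone 25 of them were lower, against 24.3% of all genes. None of the 13 mitochondrially encoded genes was called (2 were lower by the adjusted p alone). Their median of -0.14 became 0.01 when rescaled without hemoglobin genes or centred on the median. Of 78 mitochondrial ribosomal protein genes, 1 was called, Mrps36 at -1.04. It was not called without Poly replicate 3 (-0.999) or without Ortho replicate 2 (-0.94), nor when rescaled without hemoglobin genes (-0.91) or centred on the median (-0.90). Splicing factor genes had 2 of 65 members called lower, Srsf4 at -1.21 and Srsf10 at -1.03, and 45 lower by the adjusted p alone, against 24.3% of all genes, with a median of -0.36. Srsf10 was not called without Poly replicate 2 (-0.95) or without Ortho replicate 1 (-0.96). Of 27 nuclear pore genes, Ahctf1 and Nup35 were called lower (7.41%, against 5.12% of all genes), at -1.28 and -1.26. By the adjusted p alone, 18 of the 27 were lower and none higher, against 24.3% and 5.76% of all genes, with a median of -0.39. With all libraries rescaled to the same sum, 7 were called lower. Of 38 ribosome biogenesis genes, only Ubtf, a factor of RNA polymerase I, was called, at -1.09, and its value was -0.95 with the rescaling without hemoglobin genes.

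**Figure D4:**
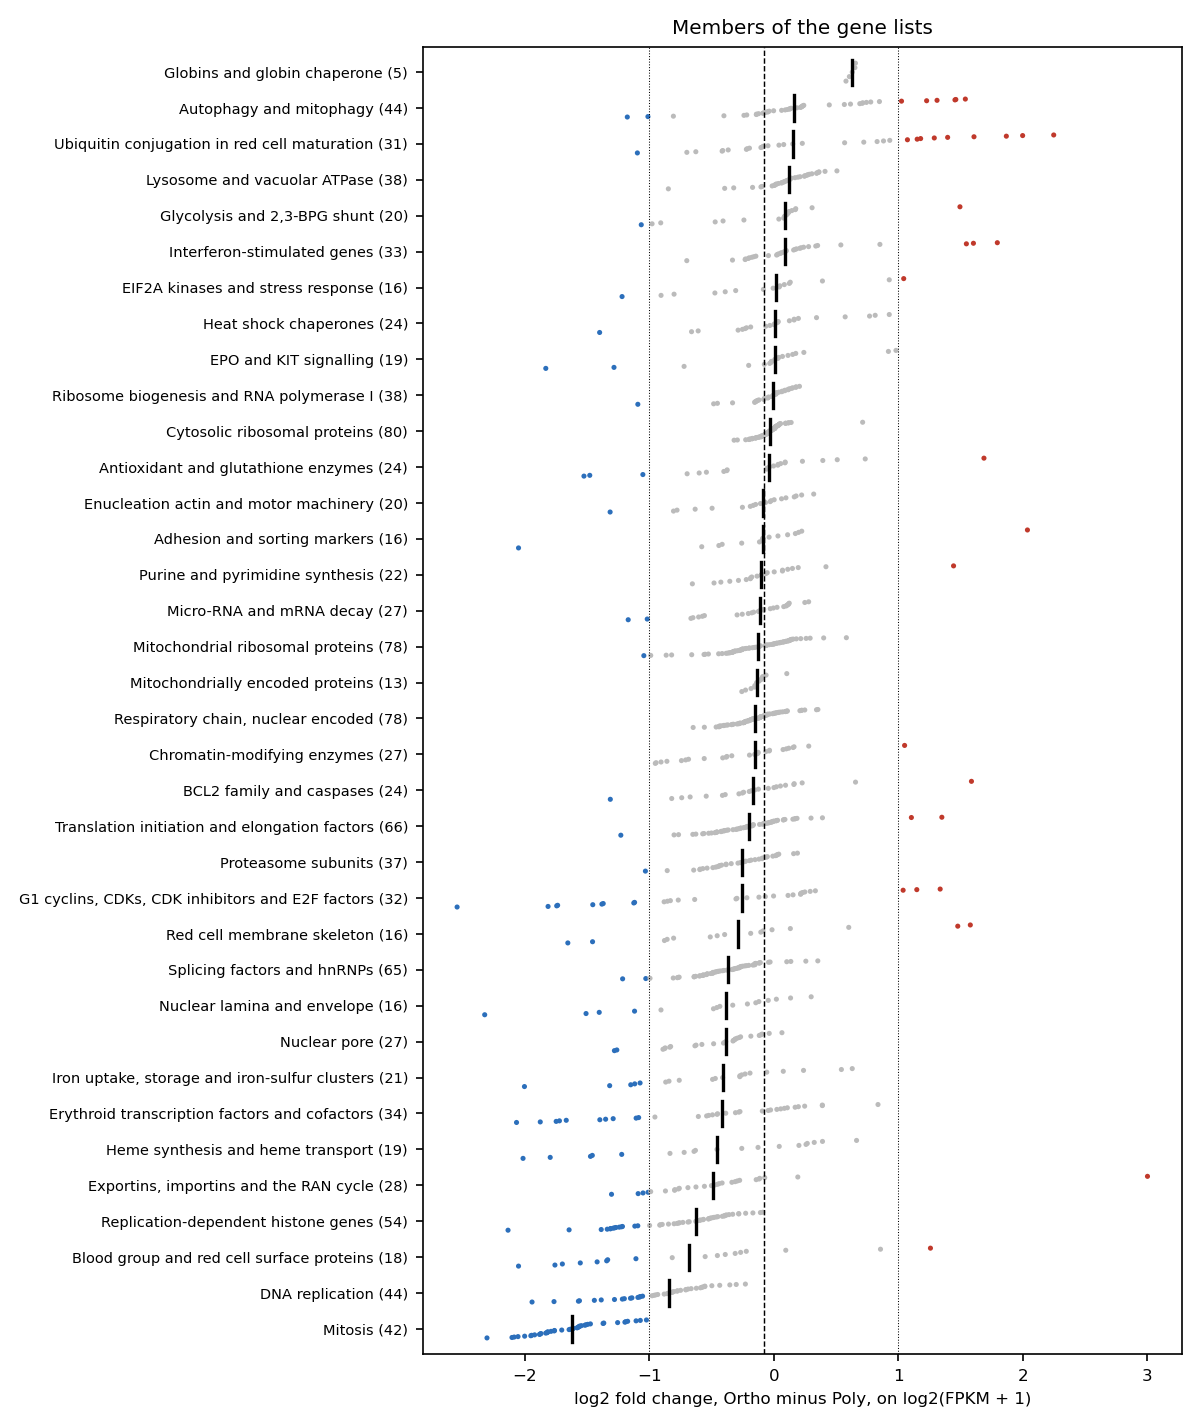
Log2 fold change from Poly to Ortho of each tested member of the 36 gene lists, with the number of members tested in parentheses, points red when called higher and blue when called lower, and a black bar at the list median. The dashed line is the median of all genes tested, -0.08, and every mitosis gene lies beyond the dotted line at a log2 fold change of -1.

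A few enzymes and regulators stood out within lists that otherwise held few calls. Bpgm, which makes the 2,3-bisphosphoglycerate that lowers the oxygen affinity of hemoglobin, had 261, 383 and 334 FPKM in Poly and 733, 1103 and 932 FPKM in Ortho (log2 fold change 1.49, SE 0.18, limma adjusted p = 0.00083). In the same list, Hk1, the red cell hexokinase gene, was called lower at -1.06, and it was not called when rescaled without hemoglobin genes or centred on the median (-0.92 in both). Cat, the catalase gene, had 76.5, 83.1 and 77.6 FPKM in Poly and 250, 257 and 263 FPKM in Ortho (log2 fold change 1.69, SE 0.05, limma adjusted p = 3.8e-06). Other antioxidant genes went down: Nqo1, a quinone reductase, Gclc, the catalytic subunit of glutathione synthesis, and Gpx4, the phospholipid peroxidase, were called at -1.52, -1.48 and -1.05. Gpx4 was not called when rescaled without hemoglobin genes (-0.91) or centred on the median (-0.90). Nt5c3, the pyrimidine nucleotidase of red cells, had 139, 118 and 124 FPKM and then 366, 332 and 343 FPKM, a log2 fold change of 1.44. Eif5, an initiation factor, and Pabpc1, the cytoplasmic poly(A)-binding protein, were called higher at 1.35 and 1.10 among 66 translation factor genes, in which 29 were lower by the adjusted p alone. Eif4enif1, which carries eIF4E into the nucleus, was the single lower call of that list, at -1.23. With all libraries rescaled to the same sum, 1 gene of this list was called higher.

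Stress and interferon lists held a few calls each. Ppp1r15a, the stress-inducible phosphatase subunit that reverses eIF2α phosphorylation, was called at 1.04 from 203, 170 and 248 FPKM in Poly and 453, 409 and 409 FPKM in Ortho. It was not called without Poly replicate 2 (0.91) or without Ortho replicate 1 (0.99). Ddit3, the gene of CHOP, was called lower at -1.22, and Dnajb1, a co-chaperone, at -1.40. Of 33 tested interferon-stimulated genes, 3 (9.09%) were called higher and none lower, against 1.15% and 5.12% of all genes. Rsad2, the gene of viperin, had 133, 102 and 99.5 FPKM in Poly and 398, 263 and 330 FPKM in Ortho, Ifit1 had 3.59, 2.44 and 3.21 FPKM and then 15.9, 11.3 and 12.3 FPKM, and Oasl2 had 12.5, 5.68 and 4.87 FPKM and then 33.4, 18.9 and 20.8 FPKM. Their log2 fold changes were 1.55, 1.79 and 1.6, and in all 3 genes replicate 1 was the highest library of its stage. Monocytes also express such genes, and the part of the monocyte and macrophage transcripts given above was not tested. The list median was 0.09, and -0.07 with all libraries rescaled to the same sum, which also lowered the median of all genes. Dgcr8, of the microprocessor complex, was called lower at -1.17. Ago2, the slicing Argonaute, was called at -1.02 and was below the threshold without Poly replicate 1 (-0.999), without Poly replicate 3 (-0.96) and without Ortho replicate 2 (-0.93).

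Abcg4, a lipid transporter gene on chromosome 9 from 44273188 to 44288615, had 67.6, 55.3 and 61.3 FPKM in Poly and 4.65, 5.10 and 6.72 FPKM in Ortho (log2 fold change -3.27, SE 0.13, limma adjusted p = 6.7e-06), with the Poly mean 11.2 times the Ortho mean. Sec14l2, a tocopherol-binding protein gene, had 11.4, 12.2 and 15.7 FPKM and then 1.27, 1.23 and 1.59 FPKM, a log2 fold change of -2.57. Mxd3, a MAX-binding repressor of the MYC network, had 79.5, 74.1 and 77.1 FPKM and then 13.0, 14.2 and 14.9 FPKM, a log2 fold change of -2.37. All Ortho libraries of these genes were far below all Poly libraries. A lack of overlap was a condition for naming them among the largest decreases. Agfg2, Adcy6, Plek2, Kif18b, Ankle1, Slc6a20a, Crip2 and Gpsm2 were called between -2.37 and -2.18. Plek2 encodes an actin-regulating pleckstrin of erythroblasts, Kif18b a mitotic kinesin, Gpsm2 a protein that orients the spindle and Ankle1 a nuclease. Tgm2, the transglutaminase that the study is about, had 14.5, 15.1 and 16.1 FPKM in Poly and 2.69, 3.32 and 3.73 FPKM in Ortho (log2 fold change -1.94, SE 0.11, limma adjusted p = 2.4e-05), with no overlap between the stages.

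This step was then compared with the step before it, from Baso to Poly, by a test of the difference between the log2 fold changes over the 9 libraries. Both steps use the Poly libraries, so a Poly library that stands apart moves both. The difference was called higher in 188 genes (1.54%) and lower in 579 (4.74%), 767 (6.28%) in all. For the mitosis list, the median was -0.07 from Baso to Poly and -1.62 from Poly to Ortho, and 38 of the 42 members had a lower step difference. For the erythroid transcription factors, the medians were 0.01 and -0.42, with 9 of 34 step differences lower and 1 higher, that of Lmo2. For DNA replication, the medians were -0.36 and -0.84, with 4 of 44 lower, and for heme synthesis, -0.27 and -0.46, with 3 of 19 lower. For ubiquitin conjugation, they were -0.05 and 0.15, with 10 of 31 higher and 1 lower.

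Among genes with a mean of at least 10 FPKM in either stage, the largest called step differences were those of Cdkn2d, Plek2 and Mxd3 downward and of Xpo7 and Tmcc2 upward. The step difference of Gm9522, at 2.82, exceeded these upward values and was not called (limma adjusted p = 0.054). Cdkn2d had a mean of 118 FPKM in Baso, 210 FPKM in Poly and 36 FPKM in Ortho, a step difference of -3.37 (SE 0.34, limma adjusted p = 0.00018). Plek2 had 9.52, 20.6 and 3.33 FPKM in the same order, also with -3.37, and Mxd3 had 42.4, 76.9 and 14.1 FPKM, with -3.22. These 3 genes were highest in Poly among the 3 stages. Evi2, which overlaps Evi2a and Evi2b in the annotation, had a step difference of -3.07. Xpo7 had 97.7, 118 and 948 FPKM, a step difference of 2.72 (SE 0.20, limma adjusted p = 3.1e-05), and Tmcc2 had 184, 198 and 1326 FPKM, a step difference of 2.64. Cd36 had 59.6, 40.6 and 166 FPKM, a step difference of 2.54. Gm10774, at lower levels, had 6.65, 0.0732 and 3.44 FPKM and a step difference of 4.82. It passed the filter, which was set on Poly and Ortho, only through its Ortho libraries. Klf1, at 340, 292 and 69.3 FPKM, and Gata1, at 128, 100 and 30.9 FPKM, had step differences of -1.85 and -1.31. Tmem14c, with 451, 216 and 78.3 FPKM, had log2 changes of -1.06 and -1.46, and its step difference of -0.40 was not called.

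**Figure D5:**
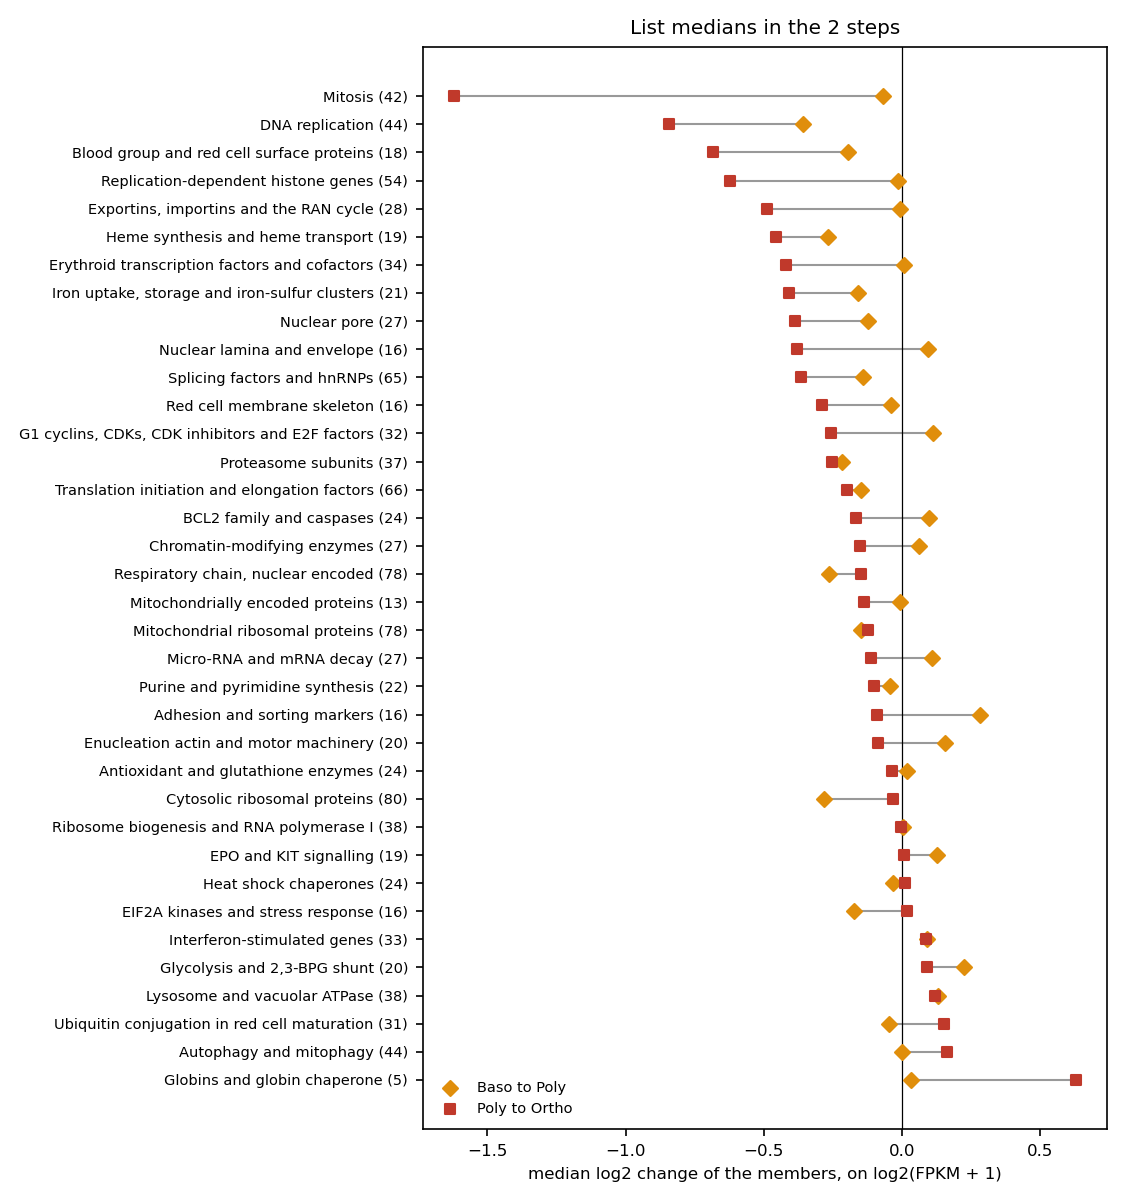
Median log2 change of each of the 36 gene lists from Baso to Poly (orange diamonds) and from Poly to Ortho (red squares), joined by a grey line, with the number of members tested in parentheses. Both steps share the Poly libraries, and the widest gap is that of the mitosis list, from -0.07 to -1.62.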

How the data were processed

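RNA of sorted mouse erythroblasts was sequenced as paired reads, and 1 table with an FPKM for each gene and library was deposited. According to the methods, the authors removed adaptors with cutadapt and low-quality sequence with Trimmomatic, aligned reads to mm10 with HISAT2, and used SAMtools and featureCounts before the FPKM values were made. The versions, the gene annotation and the tool that made the FPKM values are not given in the sources used here, and the labels and the methods name different library kits. The low values showed no whole-fragment steps, so the depth of each library is unknown. Summed FPKM was 578010 to 593137 in Poly and 655594 to 691033 in Ortho. The authors tested counts, and these are not FPKM, so limma was used here in place of their count test.

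Samples were grouped by their labels. Values were transformed to log2(FPKM + 1), and genes with at least 1 FPKM in at least 3 of the 6 libraries were fitted with limma 3.58.1 in R 4.3.3 (eBayes with a variance trend, no block, Benjamini-Hochberg adjustment). The step difference was fitted over 9 libraries. Tested on simulated data from the 12209 genes, the Poly to Ortho fit recovered 95% of genes changed by 1.5 and 99% of those changed by 3 on the log2 scale. The changed genes were drawn only from those above a low mean level, and the noise was independent between libraries. These rates thus do not cover genes with low FPKM, paired libraries or a shift in the hemoglobin share. Same-numbered Poly and Ortho libraries deviated together (r = 0.332, 0.169 and 0.181, against -0.202 to 0.0305 for different numbers), so the numbers were taken to pair the libraries. This comes from the data, since the labels do not say what a number marks. Deviations from a stage mean cancel across its libraries, so the values for same and different numbers are not independent. The SEs and adjusted p-values printed for genes are from the fits without a block. With the replicate block, single values moved both ways. The limma adjusted p of Alad was 0.00014 in place of 5.3e-06, and that of Bpgm 0.00014 in place of 0.00083.

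The members and the 36 gene lists and 7 marker lists were chosen with earlier results of these data known. Named genes are the 15 largest increases and 15 largest decreases among called, separated genes with a mean of at least 10 FPKM in either stage, the 3 most abundant members and the extreme called members of each list, genes the study names for these stages, the 2 most abundant members of each marker list, and the 5 largest step differences in each direction. Other list members named were chosen after their values were seen, as were Gm10774, Npm2 and Zfp874b. Symbols were matched to RefSeq promoters for 8681 of 12206 tested symbols. Alternatives were other pseudocounts, filters, scalings, a replicate block, no variance trend, all 12 libraries, the adjusted p alone and leaving out each library in turn. Some genes of the lists are not reported here.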

Additional observations from a re-analysis of the deposited data

How the results depend on the processing

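Of the 765 genes called (140 higher, 625 lower), a pseudocount of 5 gave 440 (81 and 359), and the adjusted p alone gave 3669 (703 and 2966). A pseudocount of 5 lowers the fold of genes with low FPKM by its construction. For the step difference, a pseudocount of 5 gave 448 calls (114 higher and 334 lower). Centring on the median gave 262 higher and 378 lower calls (640 in all). Centring adds the same amount to the step difference of every gene by its construction. The part of that shift in the change of the counts was not tested. The scalings moved the split between higher and lower calls: 94 and 912 with the same sum, 188 and 464 without hemoglobin genes, 198 and 441 with centring on the median. The replicate numbers were taken to pair the libraries from the data alone. The fit with the replicate block gave 772 calls (145 and 627). Of these, 763 were shared with the fit without it, and 2 calls of that fit were lost. With the replicate block, the step difference had 805 calls (206 and 599), and with the block and centring together Poly to Ortho had 644 (201 and 443). Leaving out 1 library gave 747 to 788 calls (135 to 147 higher, 607 to 653 lower), and 622 of the 765 genes were called in all 6 such fits. For the step difference, leaving out 1 library gave 701 to 817 calls (162 to 201 higher, 536 to 616 lower). The hemoglobin difference was 11.5 to 14.2 percentage points without 1 library, with an exact permutation p of 0.2, the smallest possible there. DESeq2 and edgeR were not run, since the values are not counts. The depth of the libraries is unknown, so the precision of low values cannot be given. Of the 95 named lower calls, Ago2, Atg4d, Gpx4, Hist1h2ao, Hk1, Kpna2, Mcm2, Mrps36, Psmd5, Rcc1, Rnf123, Slc40a1, Srsf10, Sun1, Ttk, Ubtf, Xk, Xpo1 and Zbtb7a were not called without hemoglobin genes or with centring on the median, nor was Erfe with the latter. Of the 48 named higher calls, Cdkn1b, Ezh1, Npm2, Pabpc1, Pink1, Ppp1r15a, Rnf11, Tfdp2, Trim10 and Ube2r2 were not called with the same sum. A pseudocount of 5 lost 6 higher and 19 lower named calls, and no filter on low values lost Evi2, Gm9522, Hist1h2ao, Klf11, Oasl2 and Xiap.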
